A study of Mus musculus with 4 samples.

Results

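The genes described here are the matrix metalloproteases (MMPs), the ADAMs, the ADAMTS and ADAMTS-like genes and the tissue inhibitors of metalloproteases (TIMPs), in cultured mouse adipocyte progenitors. They were chosen by name alone: a symbol had to begin with Mmp, Adam, Adamts, Adamtsl or Timp followed directly by a digit. This gave 54 of the 15906 genes listed in the data, namely 18 Mmp, 14 Adam, 14 Adamts, 4 Adamtsl and 4 Timp genes. The mouse annotation GENCODE M21 holds 83 protein-coding genes with such names, and the other genes of these families had no row in the deposited values.

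The cells came from adipose tissue of C57BL/6 mice. They were sorted with magnetic beads from the depots named SAT or VAT, either for CD137, a receptor of the tumour necrosis factor family that has been used to mark beige adipocyte precursors, or for PDGFRα (CD140 in the labels), a general marker of adipose progenitors. All groups were then grown, given an adipogenic cocktail and treated either with PBS or with the synthetic glucocorticoid dexamethasone (DEX) at 1 µM. It is not stated which depot gave which cells, how many animals were used or what the cocktail held. They give 4 samples, 1 per group: CD137+ with PBS, CD137+ with DEX, PDGFRα+ with PBS and PDGFRα+ with DEX.

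The values are FPKM (fragments per kilobase of a transcript, relative to all mapped fragments) in 3 tables, one setting DEX against PBS in each cell type and one setting PDGFRα+ against CD137+ cells, both with DEX. Each DEX label therefore stands over 2 columns, and these columns hold different values. They are named apart by their label and table: DEX-a is the DEX library in the table with PBS of the same cells, and DEX-b is the one in the table of both DEX samples. The titles of the deposited sheets number the libraries of 1 DEX label differently, and it is not stated whether they are replicates. Whether any column carries another sample's label was not tested. With 1 library per label in each table, replicate error cannot be given for any difference and nothing was tested.

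MMPs are zinc proteases that are made as inactive zymogens and cut collagens, proteoglycans and other matrix proteins. The membrane-bound protease encoded by Mmp14 activates the zymogen of Mmp2 in a complex that also needs Timp2, and is the collagenase that developing fat depends on in mice. ADAMs sit in the cell membrane and release the outer parts of growth factors and receptors, ADAMTS proteases are secreted and process procollagens or cut proteoglycans such as versican, and ADAMTS-like proteins resemble them but lack a protease domain. TIMPs block the active sites of these enzymes. Glucocorticoids are textbook repressors of collagenase and stromelysin genes, acting in part through the transcription factor AP-1.

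Depth is unknown, since the files give no read counts, so no counting interval can be given. Between 11971 and 12465 genes per library reached 1 FPKM. The libraries did not all sit with their labels. PDGFRα+ DEX-b was close to PDGFRα+ PBS: of 12456 genes, 0.0562% stood 2-fold or further above PBS and 0.112% as far below it. CD137+ DEX-a was likewise close to CD137+ PBS. Tsc22d3, a standard glucocorticoid-induced gene, stood at 76.1 FPKM in CD137+ PBS, 38.5 in DEX-a and 28.7 in DEX-b, and at 113 in PDGFRα+ PBS, 30.2 in DEX-a and 122 in DEX-b. Of 6 such genes measured in PDGFRα+ cells, 0 were at least 2-fold higher in DEX-a than in PBS and 4 were at least 2-fold lower. In CD137+ cells 0 of the 6 were as far higher in DEX-a and 1, Tsc22d3, was lower. In CD137+ DEX-b, set across tables, 1 was higher and 3 were lower, where 4.76% and 7.28% of all genes were. The higher one was Sgk1, at 67.8 FPKM in CD137+ PBS, 117 in DEX-a and 189 in DEX-b. A direction given below is therefore one between the library labelled DEX and the library labelled PBS. CD137+ DEX-b and PDGFRα+ DEX-a also had the lowest sums of adipocyte marker genes, at 127 and 71.6 FPKM against 779 to 2152 in the other libraries. These sums held 5 listed genes, or 6 in CD137+ PBS and DEX-a, where Lep was also listed. Sums of 6 progenitor marker genes were lowest in the same pair, at 695 and 552 FPKM against 1665 to 2427. Ly6a and Dcn gave most of each sum. Pdgfrb did not follow, at 94.4 FPKM in CD137+ DEX-b against 94.5 in PBS. In PDGFRα+ DEX-a it stood at 71.9 FPKM against 49.3 in PBS. The sums of proliferation markers were highest in CD137+ DEX-b and PDGFRα+ DEX-a, at 147 and 100.4 FPKM against 19.5 to 82.6. So were those of mural and smooth muscle markers, at 702 and 1878 FPKM against 169 to 545. Of the latter sums 692 and 1808 FPKM were Acta2, so they are mostly that gene. Cspg4 was also highest in both, at 4.19 and 8.79 FPKM. Myh11 was highest in PDGFRα+ DEX-a, at 59.2 FPKM. In CD137+ DEX-b it stood at 4.97 FPKM, below its 32 FPKM in PDGFRα+ PBS and 26.7 in PDGFRα+ DEX-b. Rgs5 (0.786 and 0.683 FPKM) and Kcnj8 (0.176 and 1.62 FPKM) were below their levels in PDGFRα+ PBS, 1.18 and 2 FPKM. Mitochondrial genes took 3.63% and 3.92% of FPKM in PDGFRα+ PBS and DEX-b and between 7.8% and 8.62% in the other libraries. In bulk RNA, fewer cells of a type and less RNA per cell cannot be told apart, and the part of cell makeup in the results below was not tested.

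Each difference was taken between values of log2(FPKM + 1), a scale that shrinks differences of low genes, and is relative to the median over all genes. That median lay at 0.05 (DEX-a minus PBS, CD137+), 0.24 (DEX-a minus PBS, PDGFRα+) and -0.22 (PDGFRα+ minus CD137+, DEX-b). Genes that differed 2-fold or further were called apart, provided the higher value reached 1 FPKM.

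Of the 54 genes, 47 were listed in the CD137+ table, 52 in the PDGFRα+ table and 49 in the table of both DEX samples, and 45 in all 3. The CD137+ table did not list Adam4, Adamts8, Adamts20, Mmp1b, Mmp7, Mmp10 and Mmp12. Adam1a and Timp4 were listed only there. At 1 FPKM or more in every one of the 6 columns were 34 genes, and 52 reached it in at least 1. The exceptions were Adam4 and Mmp1b. In no library was a listed member at 0. In each table the members that reached 1 FPKM in the higher library, and so could be counted, numbered 43, 50 and 45.

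**Figure D1:**
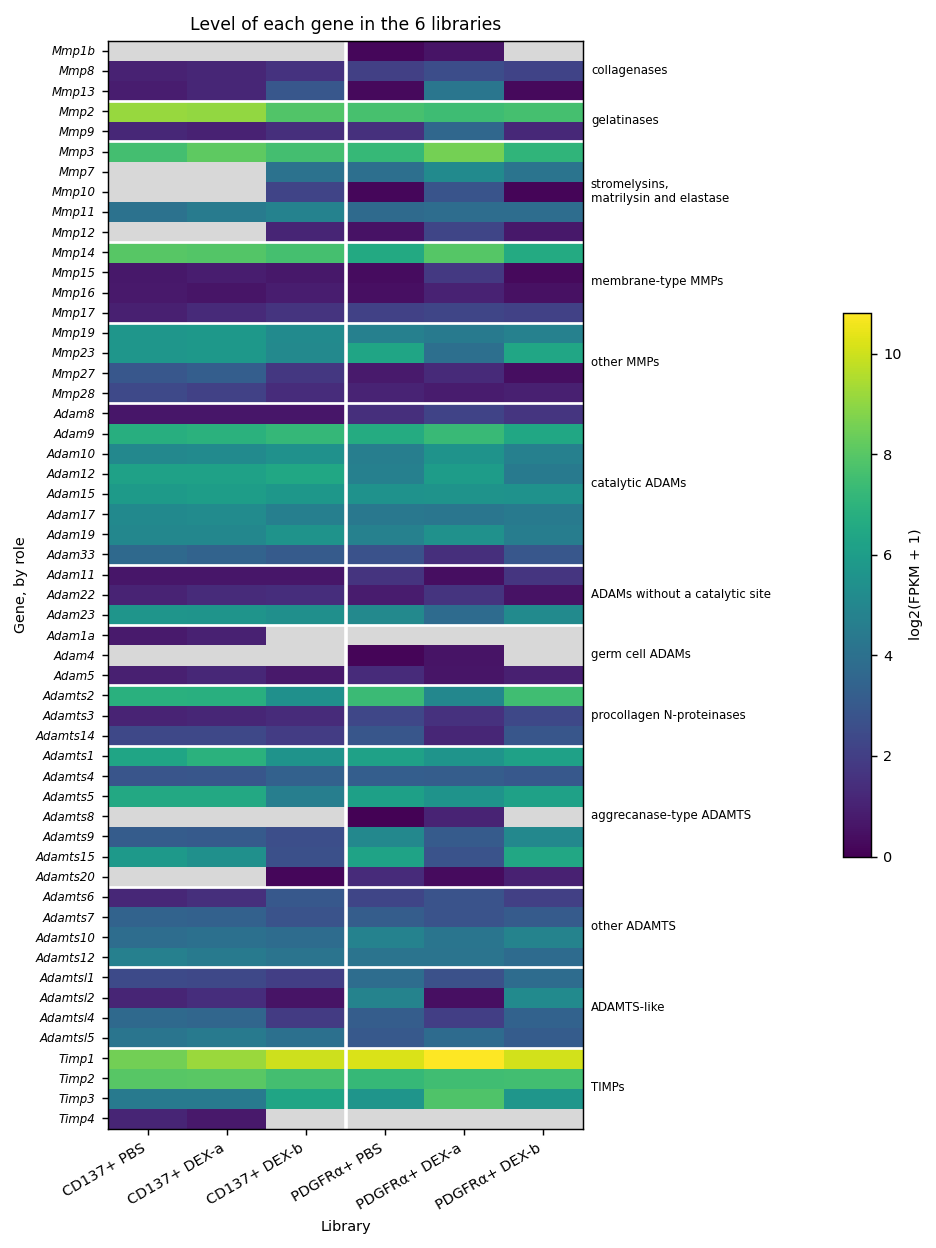
Level of each of the 54 genes (rows, grouped by role) in the 6 libraries (columns) as log2(FPKM + 1), with grey where the table did not list the gene. Timp1, Timp2, Mmp2, Mmp3 and Mmp14 are the brightest rows, and Timp1 reaches 1798 FPKM in PDGFRα+ DEX-a.

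A few genes made up most of the families' RNA. Together the 54 genes took between 0.611% and 0.872% of all FPKM, with the highest share in PDGFRα+ DEX-a. Mmp2, Mmp3 and Mmp14 gave 88.5% of the summed MMP level in CD137+ PBS, 75.3% in PDGFRα+ PBS, and between 73.9% and 87.6% in the DEX libraries. Timp1 gave between 57.1% and 85.5% of the summed TIMP level. Adamts1, Adamts2, Adamts5 and Adamts15 gave between 65.5% and 84.8% of the summed ADAMTS level, and the lowest shares were those of CD137+ DEX-b and PDGFRα+ DEX-a.

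The summed MMP level was 1150.0 FPKM in CD137+ PBS, 1189 in DEX-a and 755 in DEX-b, and 588 in PDGFRα+ PBS, 936 in DEX-a and 575 in DEX-b. The summed TIMP level in the same order was 642, 865 and 1299.5 FPKM in CD137+ cells and 1358, 2209 and 1324 FPKM in PDGFRα+ cells. The ratio of TIMP to MMP sums was thus 0.558 in CD137+ PBS and 0.728 in CD137+ DEX-a, against 1.72 in CD137+ DEX-b. In the PDGFRα+ libraries it lay between 2.3 and 2.36. The summed ADAMTS level was 177 FPKM in CD137+ DEX-b and 197 FPKM in PDGFRα+ DEX-a, and between 409.7 and 517 FPKM in the other libraries. The ADAMTS sum was thus lowest in the same pair of libraries in which the sums of adipocyte and progenitor markers were lowest. The ADAM sum differed less, with 401, 418 and 451 FPKM in the CD137+ libraries and 282, 395 and 267 FPKM in the PDGFRα+ libraries.

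**Figure D2:**
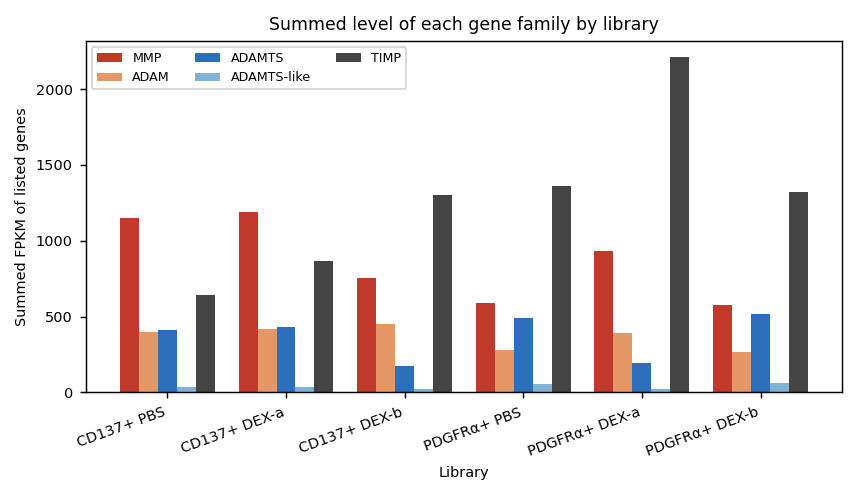
Summed FPKM of the listed genes of each family (bars, axis from 0) in the 6 libraries, 1 bar per family and library with no error since there are no replicates. The ADAMTS bars of CD137+ DEX-b (177 FPKM) and PDGFRα+ DEX-a (197 FPKM) are less tall than the others, and the TIMP bar of PDGFRα+ DEX-a is the tallest at 2209 FPKM.

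The 3 tables gave different pictures of the families. In CD137+ cells, 0 of 43 members were at least 2-fold higher in DEX-a than in PBS and 0 at least 2-fold lower, where 0.406% and 0.658% of 12304 genes were. The members' median difference was 0.04. The members furthest apart were Timp1 (0.62), Adamts1 (0.50) and Mmp3 (0.48). In PDGFRα+ cells, 9 of 50 members were at least 2-fold higher in DEX-a and 13 at least 2-fold lower, against 9.38% higher and 11.7% lower of all 13181 genes. The higher ones were Mmp13, Mmp10, Timp3, Mmp9, Mmp12, Mmp15, Mmp14, Mmp3 and Adam12. The lower ones were Adamtsl2, Adamts15, Mmp23, Adamts2, Adamts9, Adamts14, Adam23, Adam33, Adamtsl1, Adam11, Adamtsl4, Adamts20 and Adamts3. The members' median was -0.15.

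The split ran between families. Of 17 measured MMP genes 7 were higher and 1, Mmp23, was lower, and their median difference was 0.35. Of 14 ADAMTS genes 0 were higher and 6 lower, with 12 of the 14 below 0 and a median of -0.85. Of 4 ADAMTS-like genes 3 were lower, of 12 ADAM genes 1 was higher and 3 lower, and of 3 TIMPs 1 was higher. The median over all genes tested was 0.01. The authors' deposited table, whose q-values rest on the same single libraries, gave q under 0.05 to 8 higher and 11 lower of 52 members, against 9.37% and 5.63% of all genes. Of the members counted as apart, Mmp3, Mmp14, Adam12, Adamts3 and Adamtsl4 had no such q there. Adam22 and Adamts8, both low genes, had such a q without being counted as apart on the scale used here. In the CD137+ table the authors' q was under 0.05 for 1 of 47 members, Timp1 (q = 3.32e-07), against 1.8% of genes higher and 1.91% lower.

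**Figure D3:**
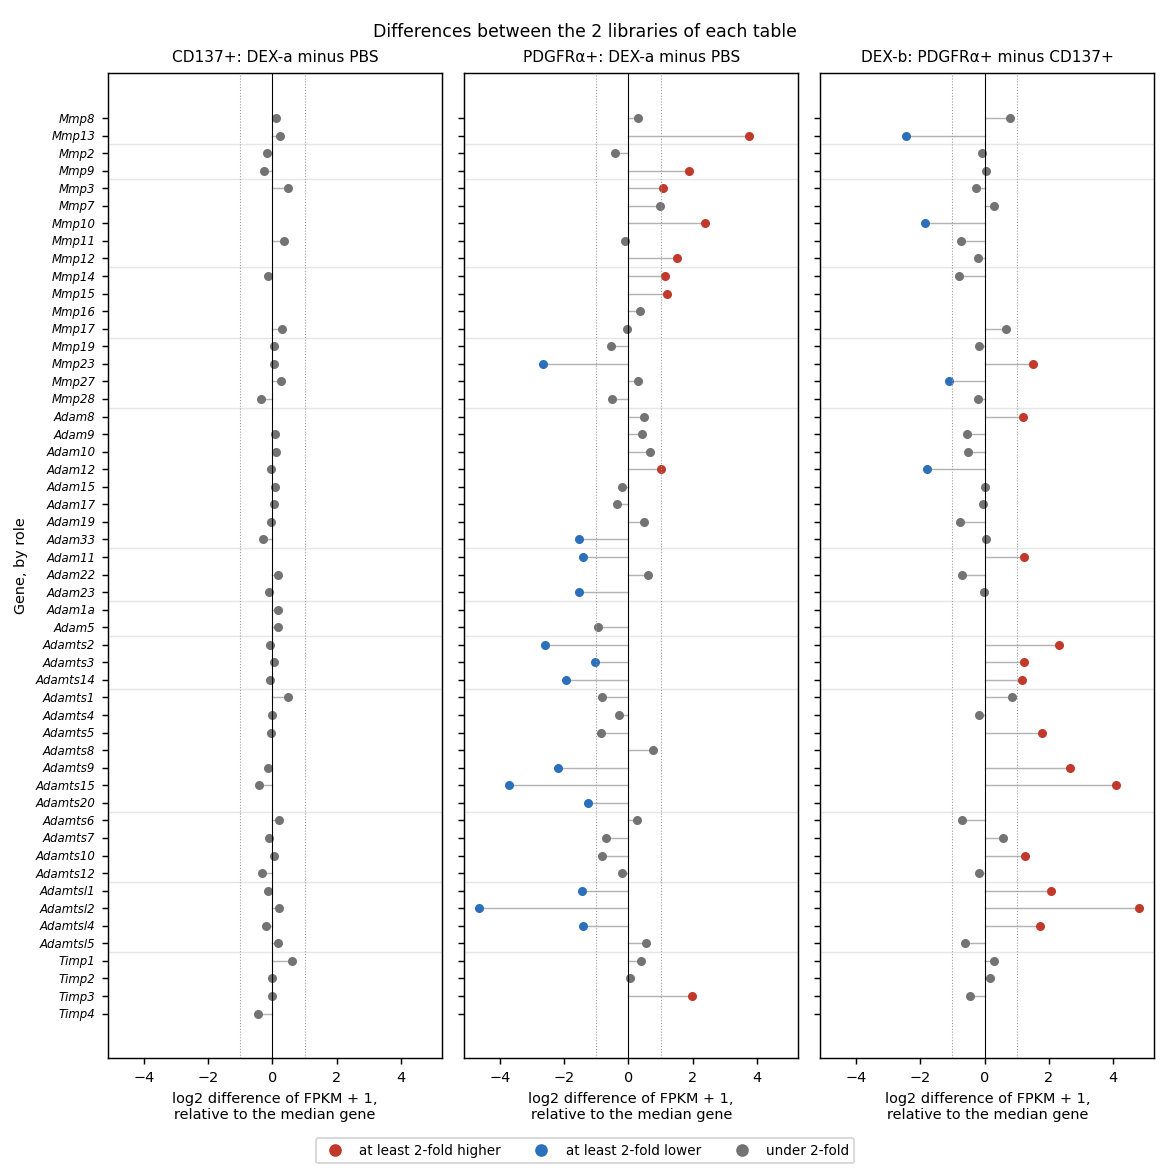
Difference in log2(FPKM + 1), relative to the median gene, for each member whose higher value reached 1 FPKM, in the 3 tables (panels). Red points are 2-fold or further above, blue as far below and grey closer, and the dotted lines mark 2-fold. The left panel has 0 coloured points, the middle one 9 red and 13 blue, and the right one 13 red and 4 blue.

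The stromelysins and the collagenase that stood higher in PDGFRα+ DEX-a lie together in the genome. On chromosome 9, 8 of the listed MMP genes occupy 7272514 to 7699585 (GRCm38, GENCODE M21) in the order Mmp13, Mmp12, Mmp1b, Mmp3, Mmp10, Mmp8, Mmp27 and Mmp7. The RefSeq sequence (GRCm38.p6) just upstream of the start of 3 of them is printed here because these genes stood higher in the same library and have a match to the AP-1 motif, TGANTCA, in capitals. That of Adamtsl2, which was furthest lower, is given beside them and has 0 matches. Mmp12 stood higher too and has a match, and is not printed because RefSeq gives it more than 1 start. The windows run 250 bases up to the base before the RefSeq start, on the plus strand of chr9:7272264-7272513, chr9:7445572-7445821, chr9:7502092-7502341 and chr2:27079129-27079378. The RefSeq start of Mmp10 lies a little upstream of the GENCODE one.
Mmp13: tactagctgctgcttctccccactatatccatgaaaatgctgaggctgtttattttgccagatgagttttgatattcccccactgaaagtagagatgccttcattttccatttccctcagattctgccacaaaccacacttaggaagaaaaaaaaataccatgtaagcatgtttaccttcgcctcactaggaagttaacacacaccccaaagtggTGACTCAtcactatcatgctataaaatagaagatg
Mmp3: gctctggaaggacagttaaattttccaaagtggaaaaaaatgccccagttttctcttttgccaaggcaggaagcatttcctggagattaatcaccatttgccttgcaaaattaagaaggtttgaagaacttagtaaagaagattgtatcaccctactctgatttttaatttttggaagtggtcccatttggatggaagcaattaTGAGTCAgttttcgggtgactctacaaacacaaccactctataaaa
Mmp10: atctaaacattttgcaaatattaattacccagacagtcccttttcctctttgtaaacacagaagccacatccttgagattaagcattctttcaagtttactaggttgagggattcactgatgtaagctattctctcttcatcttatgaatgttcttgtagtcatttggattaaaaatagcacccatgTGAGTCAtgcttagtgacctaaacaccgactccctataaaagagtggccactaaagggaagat
Adamtsl2: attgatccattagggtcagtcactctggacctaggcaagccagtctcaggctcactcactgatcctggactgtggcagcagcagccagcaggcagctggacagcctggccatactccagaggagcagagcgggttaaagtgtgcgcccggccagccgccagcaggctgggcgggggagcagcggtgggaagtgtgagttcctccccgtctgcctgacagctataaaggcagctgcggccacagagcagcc

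The AP-1 match began 35 bases upstream of the RefSeq start in Mmp13, 46 in Mmp3 and 63 in Mmp10. Searched on both strands, it was present in 7 of 40 windows of the 35 members that had one (Adam19, Mmp1b, Mmp3, Mmp7, Mmp10, Mmp12 and Mmp13), or 17.5%, and in 6.75% of all 32851 windows of this length. All but Adam19 of these 7 genes lie in the chromosome 9 group. Adam19, Mmp1b and Mmp7 have a match but were not counted as apart in PDGFRα+ DEX-a. Mmp14, Mmp15 and Timp3 were higher there and have a window with 0 matches. The printed MMP windows were picked for both traits, so they cannot show that match and direction go together. A TATAAA match was present in Mmp1b, Mmp3, Mmp7, Mmp10, Mmp13, Adamts1 and Adamtsl2, and in 12.4% of all windows. The glucocorticoid response element (AGAACA and TGTTCT with 3 bases between them) had 0 matches among the members and 3 among all windows. GGAATG, a TEAD motif searched because the series names Tead1, was found in Adam19 and Timp1 and in 12.6% of all windows. These matches are descriptions of the letters, and say nothing of whether a factor binds.

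The subunits of AP-1 are encoded by the Fos and Jun genes. In PDGFRα+ DEX-a, 0 of 6 measured subunit genes were at least 2-fold above PBS and 1 was lower, Fos (-1.42), at 43.7 FPKM in PBS, 18.8 in DEX-a and 42.1 in DEX-b. In CD137+ cells 3 of 6 were higher in DEX-a, namely Fosb (5.47), Fos (4.98) and Jun (1.27), where 0.406% of all genes were. In CD137+ DEX-b, set across tables, 4 of 6 were at least 2-fold above PBS, where 4.76% of all genes were. The part of AP-1 in the members' levels was not tested. Fos stood at 3.54 FPKM in CD137+ PBS, 148 in DEX-a and 112 in DEX-b.

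Mmp13, collagenase-3, stood at 0.806 FPKM in CD137+ PBS, 1.22 in DEX-a and 6.71 in DEX-b, and at 0.195 in PDGFRα+ PBS, 18.2 in DEX-a and 0.218 in DEX-b. Its 2 high libraries were thus PDGFRα+ DEX-a and CD137+ DEX-b, and its difference of 3.77 between PDGFRα+ DEX-a and PBS was the highest of the members. Mmp10, stromelysin-2, was listed at 3.59 FPKM in CD137+ DEX-b, 0.153 in PDGFRα+ PBS, 6.1 in DEX-a and 0.0952 in DEX-b (difference from PBS in DEX-a, 2.38). It was high in the same libraries as Mmp13. Mmp3, stromelysin-1 and the most abundant gene of the chromosome 9 group, stood at 192, 277 and 189 FPKM in CD137+ PBS, DEX-a and DEX-b, and at 149, 375 and 135 FPKM in the PDGFRα+ libraries. Its difference in PDGFRα+ cells was 1.09 with DEX-a and -0.17 with DEX-b, so DEX-a alone was the high library of these cells.

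Mmp12, macrophage elastase, stood at 1.19 FPKM in CD137+ DEX-b and at 0.424, 3.81 and 0.644 FPKM in PDGFRα+ PBS, DEX-a and DEX-b. Its exons overlap those of Mmp1b on the opposite strand and the tables give both genes 1 locus. The strand setting of the counting is not given in the sources used here, so their split is uncertain. Mmp7, matrilysin, was just under 2-fold higher in PDGFRα+ DEX-a (0.99), at 35.6 FPKM against 14.5 in PBS and 17 in DEX-b, with 15.9 FPKM in CD137+ DEX-b. Mmp27, a less studied member of the group, was the one with its high values in CD137+ cells: 6.58, 8.48 and 2.35 FPKM in CD137+ PBS, DEX-a and DEX-b against 0.696, 1.47 and 0.326 FPKM in the PDGFRα+ libraries. Mmp8, the neutrophil collagenase, lay between 1.03 and 4.94 FPKM and was highest in PDGFRα+ DEX-a. The neighbours Mmp8 and Mmp27 lie 2910 bases apart and thus differed in which cell type they were higher in.

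The gelatinases had different patterns. Mmp2, gelatinase A, was the most abundant MMP in CD137+ cells, at 573, 525 and 236 FPKM in PBS, DEX-a and DEX-b, and stood at 200.3, 176 and 194 FPKM in PDGFRα+ PBS, DEX-a and DEX-b. The CD137+ PBS and DEX-a libraries were above the other 4. Mmp9, gelatinase B, lay between 1.04 and 1.8 FPKM in 5 libraries and at 11.3 FPKM in PDGFRα+ DEX-a (difference from PBS, 1.89). That library also had the highest sum of 3 listed neutrophil markers, 27.6 FPKM against 0.362 to 2.06 in the others, of which S100a8 gave 22.3 and S100a9 5.27 FPKM while the defining neutrophil receptor gene Csf3r was listed at 0. Macrophage markers summed to 12 FPKM there and to 7.74 to 9.29 FPKM elsewhere. Of these, Cd68 was highest there, at 5.44 FPKM against 1.17 to 3.03. Csf1r was lowest there, at 0.897 FPKM against 1.07 to 1.74, and Lyz2 stood at 5.19 against 4.53 to 6.1. Adgre1 and Mrc1 were not listed. The part of such cells in the levels of Mmp8, Mmp9, Mmp12 and Adam8 was not tested.

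Among the membrane-type MMPs, Mmp14 was by far the most abundant. It stood at 253, 240.0 and 196 FPKM in CD137+ PBS, DEX-a and DEX-b and at 93.6, 246 and 96 FPKM in PDGFRα+ PBS, DEX-a and DEX-b. PDGFRα+ DEX-a was thus within the range of the CD137+ libraries, and the other PDGFRα+ libraries were below it (difference of DEX-a from PBS, 1.14). Mmp15, another transmembrane type, stood at 0.621, 0.797 and 0.639 FPKM in the CD137+ libraries and at 0.292, 2.48 and 0.2 FPKM in PDGFRα+ PBS, DEX-a and DEX-b, and was thus highest in PDGFRα+ DEX-a (1.19). Mmp16 lay between 0.365 and 1.06 FPKM. Mmp17, which is anchored by a lipid tail, lay between 0.926 and 2.08 FPKM in CD137+ and between 3.21 and 3.81 FPKM in PDGFRα+ libraries. The 3 components of the complex that activates Mmp2 differed in balance between libraries. The ratio of Mmp14 to Mmp2 FPKM was 0.442 and 0.457 in CD137+ PBS and DEX-a, 0.467 and 0.496 in PDGFRα+ PBS and DEX-b, and 0.831 in CD137+ DEX-b and 1.4 in PDGFRα+ DEX-a. The ratio of Timp2 to Mmp2 was lowest in CD137+ PBS (0.443) and highest in PDGFRα+ DEX-a (1.03).

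Of the remaining MMPs, Mmp23, which is released from the membrane by cutting of its own propeptide, ran the other way. It stood at 50.2, 53.5 and 32.7 FPKM in CD137+ PBS, DEX-a and DEX-b and at 81.7, 14.3 and 82.5 FPKM in PDGFRα+ PBS, DEX-a and DEX-b (difference of DEX-a from PBS, -2.68). It was the 1 MMP counted as lower in PDGFRα+ DEX-a. Mmp19 stood at 50.4, 53.9 and 34.9 FPKM in CD137+ PBS, DEX-a and DEX-b and at 25.5, 20.5 and 26.2 FPKM in the PDGFRα+ libraries. The rest were Mmp11, stromelysin-3, between 12.2 and 27.1 FPKM, and Mmp28, epilysin, between 0.744 and 4.18 FPKM.

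**Figure D4:**
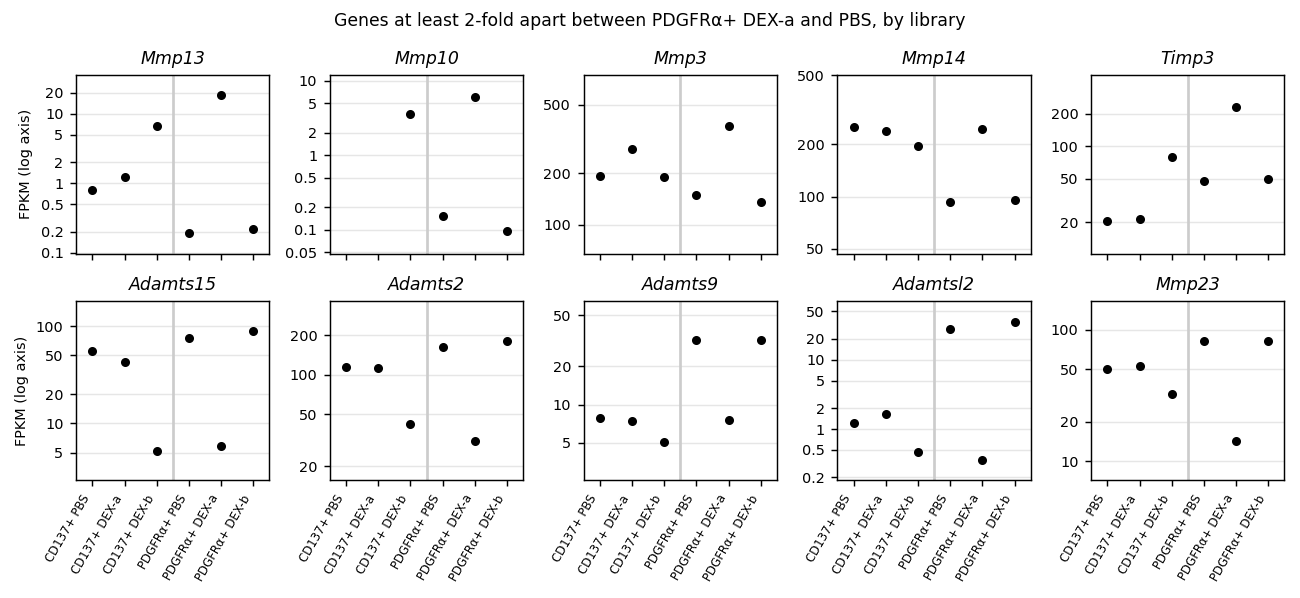
FPKM (log axes, which differ between panels) of 10 genes at least 2-fold apart between PDGFRα+ DEX-a and PBS, 1 point per library, with no point where the gene was not listed. In PDGFRα+ cells the DEX-a point stands away from PBS and DEX-b in each panel, as for Adamts15 at 5.87 FPKM against 75.5 and 89.7.

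Most shedding ADAMs differed little. Adam10, the principal sheddase of Notch, stood at 31.9, 35.6 and 42.9 FPKM in CD137+ PBS, DEX-a and DEX-b and at 24, 45.5 and 25.4 FPKM in the PDGFRα+ libraries. Adam17, that of tumour necrosis factor, stood at 34.2, 36.6 and 24.5 FPKM and at 19.2, 17.8 and 20.2 FPKM. In PDGFRα+ cells Adam10 was 0.66 higher in DEX-a than in PBS and Adam17 0.35 lower (-0.35), both under 2-fold. Adam17 shares exon sequence with Iah1 on the other strand. Adam9 was the most abundant ADAM, at 108, 117 and 147 FPKM in CD137+ PBS, DEX-a and DEX-b and 98.5, 158 and 85.9 FPKM in the PDGFRα+ libraries. Its difference in PDGFRα+ cells was 0.43. Adam15 stood at 58.1, 63 and 51.5 FPKM in the CD137+ and 44.6, 46.3 and 44.8 FPKM in the PDGFRα+ libraries, and Adam19 lay between 23 and 46.1 FPKM.

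Adam12, which has been used as a marker of progenitors activated in wounds and fibrosis, was the 1 ADAM counted as higher in PDGFRα+ DEX-a. It stood at 71.9, 71.7 and 86.4 FPKM in CD137+ PBS, DEX-a and DEX-b and at 25.3, 62.4 and 20.5 FPKM in PDGFRα+ PBS, DEX-a and DEX-b. The difference of 1.03 fell under 2-fold (0.97) when the libraries were scaled by their upper quartile. PDGFRα+ DEX-a was again nearer to the CD137+ libraries than to the other PDGFRα+ ones. Adam33, at 12, 10.01 and 7.59 FPKM in CD137+ PBS, DEX-a and DEX-b and 5.64, 1.71 and 6.65 FPKM in the PDGFRα+ libraries, was lower in DEX-a (-1.53). Adam8, a protease of leukocytes and some stromal cells, stood at 0.555, 0.592 and 0.594 FPKM in the CD137+ and at 1.74, 3.55 and 2.17 FPKM in the PDGFRα+ libraries.

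The ADAMs without a catalytic site bind LGI proteins and integrins. Adam23 stood at 49.5, 47.8 and 41.3 FPKM in CD137+ PBS, DEX-a and DEX-b and at 32.6, 12.8 and 34.8 FPKM in PDGFRα+ PBS, DEX-a and DEX-b (difference of DEX-a from PBS, -1.53). Adam11 was low, at 0.559 to 0.573 FPKM in the CD137+ libraries, 2.04 and 2.14 FPKM in PDGFRα+ PBS and DEX-b and 0.337 FPKM in PDGFRα+ DEX-a. Both were lowest in PDGFRα+ DEX-a. Adam22 lay between 0.442 and 2.12 FPKM and was highest there. The ADAMs known from germ cells were near the limit of listing: Adam5 lay between 0.532 and 1.49 FPKM, Adam1a reached 1.01 FPKM and Adam4 0.493 FPKM.

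The procollagen N-proteinases trim the amino-terminal propeptides of fibrillar collagens, and all 3 were lower in PDGFRα+ DEX-a than in PBS, with a median difference of -1.95. Adamts2, the main one in skin, stood at 114, 112 and 41.7 FPKM in CD137+ PBS, DEX-a and DEX-b and at 163, 31.1 and 182 FPKM in PDGFRα+ PBS, DEX-a and DEX-b (-2.60). It was low in CD137+ DEX-b as well as in PDGFRα+ DEX-a. Adamts14 stood at 4.12, 4.05 and 2.84 FPKM in the CD137+ and 6.42, 1.26 and 6.5 FPKM in the PDGFRα+ libraries (-1.95). Adamts3, at 1.12, 1.26 and 1.53 FPKM and at 4, 1.89 and 4.06 FPKM, was closest to the threshold (-1.03) and fell under 2-fold without centring on the median (-0.79). Their substrates ran alongside. Col1a1, which encodes the main chain of type I collagen, stood at 3767 FPKM in PDGFRα+ PBS, 939.8 in DEX-a and 3162 in DEX-b. Col3a1, of type III collagen, stood at 6337, 977 and 5759.5 FPKM in the same libraries.

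The aggrecanase-type ADAMTS proteases cut versican and aggrecan. Adamts15 showed the second lowest difference of all members in PDGFRα+ cells (-3.72), at 75.5 FPKM in PBS, 5.87 in DEX-a and 89.7 in DEX-b, and stood at 55, 42.2 and 5.18 FPKM in CD137+ PBS, DEX-a and DEX-b. The low values of PDGFRα+ DEX-a and CD137+ DEX-b lay close to each other. Its neighbour Adamts8, which lies 20109 bases away on chromosome 9 on the other strand, was the reverse, at 0.0545 FPKM in PDGFRα+ PBS and 1.13 in DEX-a, under 2-fold on this scale (0.77). Adamts9 stood at 7.87, 7.38 and 5.08 FPKM in CD137+ PBS, DEX-a and DEX-b and at 32.3, 7.57 and 31.8 FPKM in PDGFRα+ PBS, DEX-a and DEX-b (-2.20), so that PDGFRα+ DEX-a was within the CD137+ range. Adamts20, listed at 1.52 FPKM in PDGFRα+ PBS, 0.257 in DEX-a and 0.999 in DEX-b, was lower too (-1.25), and stood at 0.147 FPKM in CD137+ DEX-b.

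Adamts1 and Adamts5 lie 53059 bases apart on chromosome 16, and neither was 2-fold apart in PDGFRα+ cells. Adamts1 stood at 81.7, 119.9 and 45.7 FPKM in CD137+ PBS, DEX-a and DEX-b and at 72, 47.6 and 72.5 FPKM in the PDGFRα+ libraries (-0.83). Adamts5, the main aggrecanase of mouse cartilage, stood at 89.8, 90.9 and 23.5 FPKM and at 70.5, 45.7 and 72.1 FPKM (-0.86). Both were lowest in CD137+ DEX-b. Adamts4 stood at 6.23, 6.4 and 9.26 FPKM in the CD137+ and 8.53, 8.24 and 6.78 FPKM in the PDGFRα+ libraries. Of the other ADAMTS genes, Adamts10 stood at 13.5, 14.7 and 13 FPKM in the CD137+ and at 26.9, 17.5 and 27.7 FPKM in the PDGFRα+ libraries. Adamts6 lay between 1.31 and 6.83 FPKM, Adamts7 between 5.71 and 9.76 FPKM and Adamts12 between 12.6 and 24.9 FPKM.

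Of the ADAMTS-like genes, Adamtsl2 was the lowest against PBS of all members in PDGFRα+ DEX-a (-4.65). It encodes a matrix protein that binds fibrillin-1 and is mutated in geleophysic dysplasia in humans. It stood at 27.9 FPKM in PDGFRα+ PBS, 0.362 in DEX-a and 34.7 in DEX-b, and at 1.2, 1.64 and 0.469 FPKM in CD137+ PBS, DEX-a and DEX-b. High values were thus present in 2 of the 6 libraries, both PDGFRα+. Adamtsl1 stood at 4.36, 4.04 and 2.98 FPKM in the CD137+ and at 13.8, 5.41 and 13.3 FPKM in the PDGFRα+ libraries (-1.44). Adamtsl4, another fibrillin binder, was instead low in CD137+ DEX-b and PDGFRα+ DEX-a, at 2.72 and 3.03 FPKM, against 8.19 to 12 FPKM in the other libraries (-1.43 in PDGFRα+ cells). Adamtsl5 lay between 7.06 and 21 FPKM.

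The TIMPs were among the most abundant members. Timp1, on the X chromosome at 20870166 to 20874735, stood at 366, 582 and 1030.2 FPKM in CD137+ PBS, DEX-a and DEX-b and at 1161, 1798 and 1089 FPKM in PDGFRα+ PBS, DEX-a and DEX-b. CD137+ PBS and DEX-a were below the other 4 libraries, and the differences of DEX-a from PBS were 0.62 in CD137+ and 0.39 in PDGFRα+ cells. Timp3, which is held in the matrix and also inhibits ADAM17 and aggrecanases, differed most: 20.4, 21.1 and 80.4 FPKM in the CD137+ and 48.3, 229 and 49.95 FPKM in the PDGFRα+ libraries (1.98 in PDGFRα+ cells). Its exons overlap those of Syn3 on the other strand. Timp2 was steadier, at 254, 262 and 189 FPKM in the CD137+ and 148, 182 and 185 FPKM in the PDGFRα+ libraries, and its difference was -0.01 in CD137+ and 0.05 in PDGFRα+ cells. Timp4, known from mature adipocytes and heart, was listed at 1.19 FPKM in CD137+ PBS and 0.648 in DEX-a.

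The third table set PDGFRα+ DEX-b against CD137+ DEX-b. Of 45 members 13 were at least 2-fold higher in PDGFRα+ cells and 4 lower, against 12.6% and 7.31% of 12912 genes. Markers of several cell types moved with this comparison. In PDGFRα+ DEX-b, 5 of 5 adipocyte and 4 of 6 progenitor markers were higher, and 4 of 4 proliferation markers were lower. Of the mesothelial markers 4 of 5 were higher, among them Wt1 (4.09) and Msln (3.10). The mesothelial sum lay between 72.2 and 87.7 FPKM in the PDGFRα+ and between 4.37 and 15.7 FPKM in the CD137+ libraries. Krt19 gave 60.3 FPKM of it in PDGFRα+ DEX-a and 11.2 in CD137+ DEX-b. Wt1 stood at 44.2, 15.9 and 39 FPKM in PDGFRα+ PBS, DEX-a and DEX-b. In CD137+ PBS and DEX-a the sum held Krt19 alone, the other 4 mesothelial markers not being listed. The part of these cell types in the result was not tested. Without centring on the median the split was 9 higher and 5 lower, so it depends on the scaling. The members' median was 0.02. Higher were Adamtsl2 (4.82), Adamts15 (4.09), Adamts9 (2.65), Adamts2 (2.31), Adamtsl1 (2.06), Adamts5 (1.79), Adamtsl4 (1.72), Mmp23 (1.52), Adamts10 (1.25), Adam8, Adam11, Adamts3 and Adamts14. The last 4 lay between 1.18 and 1.21, and these were the ones that fell under 2-fold without centring. Lower were Mmp13 (-2.45), Mmp10 (-1.85), Adam12 (-1.81) and Mmp27 (-1.12), and Mmp14 joined them without centring (-1.02). By family, 7 of 12 ADAMTS genes were higher and 0 lower, with a median of 1.20, and 3 of 4 ADAMTS-like genes were higher, while of 15 MMP genes 1 was higher and 3 lower. The authors' deposited table gave q under 0.05 to 9 higher and 5 lower of 49 members, against 6.72% and 6.51% of all genes. Of the members counted as apart between the cell types, Adam11, Adamts3, Adamts5, Adamts14 and Mmp23 had no such q. Adam22 and Adamts20, both low genes, had such a q without being counted as apart.

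The columns of 1 label did not give the same account. Set across tables, where the authors may have normalized each separately, CD137+ DEX-b had 4 of 40 members at least 2-fold higher than CD137+ PBS (Adamts6, Mmp13, Timp1 and Timp3) and 7 lower (Adamts2, Adamts5, Adamts15, Adamtsl4, Mmp2, Mmp27 and Mmp28), where 4.76% and 7.28% of all genes were. CD137+ DEX-a had 0 of either, where 0.406% and 0.658% of all genes were. PDGFRα+ DEX-b had 0 of 42 members at least 2-fold from PBS in either direction, where 0.0562% of all genes were higher and 0.112% lower. PDGFRα+ DEX-a had 22 of 50, where 9.38% of all genes were higher and 11.7% lower. Set against DEX-a directly, CD137+ DEX-b had 3 of 41 members at least 2-fold higher and 7 lower, where 3.17% and 6.17% of all genes were, and PDGFRα+ DEX-b had 12 of 46 higher and 9 lower, where 11.6% and 8.61% were. Adamts15 showed the widest gap in CD137+ cells, with -0.43 for DEX-a and -3.31 for DEX-b. Adamtsl2 did so in PDGFRα+ cells, with -4.65 for DEX-a and 0.28 for DEX-b.

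**Figure D5:**
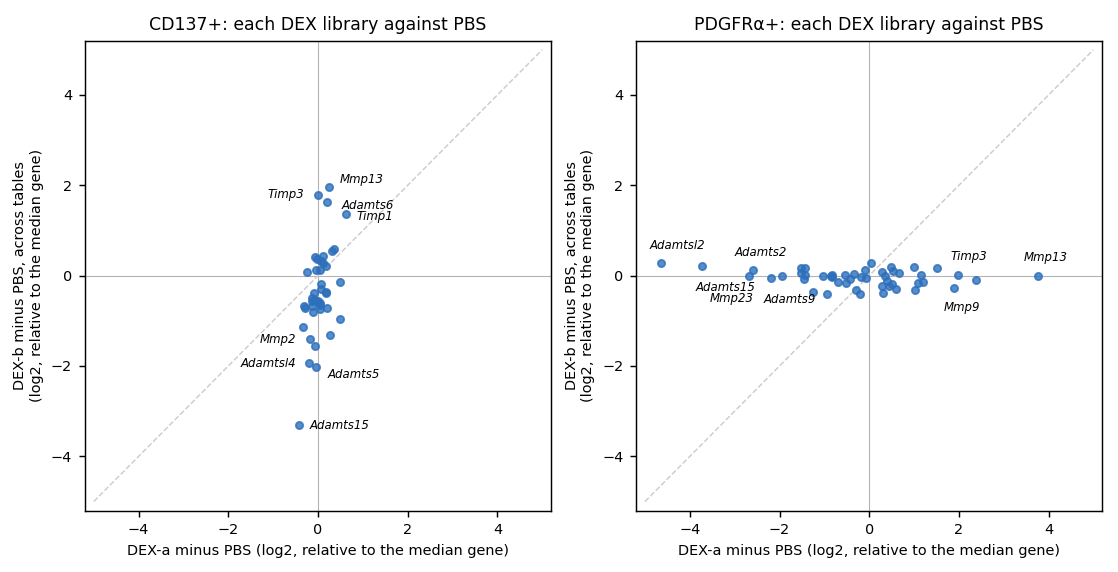
Each member's difference from PBS in log2(FPKM + 1), relative to the median gene, for DEX-a (x axis) and DEX-b (y axis, across tables), in CD137+ (left, 41 genes) and PDGFRα+ cells (right, 49 genes). The dashed line marks equal values. The CD137+ points spread along y, from Adamts15 at -3.31 to Mmp13 at 1.96, and the PDGFRα+ points along x, from Adamtsl2 at -4.65 to Mmp13 at 3.77.

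The pairs CD137+ PBS and DEX-b, and PDGFRα+ PBS and DEX-a, share no column, so their differences can be set side by side. Of 40 members measured in both, Mmp13 and Timp3 were higher in the DEX library of each, which is 33.3% of the 6 higher in PDGFRα+ and 50% of the 4 higher in CD137+ cells. Adamts2, Adamts15 and Adamtsl4 were lower in each, or 27.3% of 11 and 42.9% of 7. Over all 12092 genes the same shares were 32.9% and 56.8% for higher and 34.1% and 52.7% for lower genes. The members' shares were thus near or below those of all genes. PDGFRα+ DEX-a and CD137+ DEX-b themselves had 9 of 45 members at least 2-fold higher in PDGFRα+ (Adam8, Mmp3, Mmp7, Mmp8, Mmp9, Mmp12, Mmp13, Mmp15 and Timp3) and 3 lower (Adam23, Adam33 and Mmp23), against 5.41% and 1.45% of 12648 genes.

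Between the PBS libraries, also set across tables, 11 of 42 members were at least 2-fold higher in PDGFRα+ than in CD137+ cells and 6 lower, against 8.48% and 5.39% of 12481 genes. Adamtsl2 (3.85), Adamts9 (2.05), Timp1 (1.80) and Adamtsl1 (1.60) led the higher ones, with Adamts3, Timp3, Mmp17, Adamts6, Mmp8, Adam11 and Adamts10 between 1.08 and 1.37. Lower were Mmp27 (-2.02), Mmp2 (-1.37), Adam12 (-1.33), Mmp14 (-1.29), Mmp28 (-1.16) and Adamtsl5 (-1.07). Mmp2 and Mmp14 were thus higher in the CD137+ PBS library and Timp1 and Timp3 in the PDGFRα+ PBS library. DEX-a of the 2 cell types differed by 7 higher and 15 lower of 44 members, against 6.66% and 7.41%, and Adamts2, Adamts15, Adamtsl2 and Adamtsl4, higher in PDGFRα+ DEX-b, were among the 15.

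Other regulators of these proteases were read from lists set by function. In CD137+ cells, 0 of 17 regulators, 0 of 9 plasminogen system genes, 0 of 19 shed substrates and 0 of 9 ADAMTS substrates were at least 2-fold apart between DEX-a and PBS. In PDGFRα+ cells 4 of 18 regulators were higher in DEX-a (Furin, Frmd8, Tspan33 and Pcolce2) and 4 lower (Reck, Bsg, A2m and Sfrp1). The shares over all genes, 9.38% higher and 11.7% lower, apply to this and the following list counts in PDGFRα+ DEX-a. Reck, a membrane-anchored MMP inhibitor, stood at 16.4 FPKM in PBS, 8.22 in DEX-a and 15.3 in DEX-b. Bsg, also named EMMPRIN, an inducer of MMPs in neighbouring cells, stood at 1218, 456 and 1161 FPKM in the same libraries. The broad inhibitor A2m was far apart between libraries, with 242 and 266 FPKM in PDGFRα+ PBS and DEX-b and between 0.759 and 4.03 FPKM in the other 4. Furin, the convertase that removes the propeptide of Mmp14 and most ADAMs, stood at 15.9, 39.1 and 17.5 FPKM in PDGFRα+ PBS, DEX-a and DEX-b and between 28.8 and 32.8 FPKM in CD137+ libraries.

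Plasmin activates several MMP zymogens, and 5 of 9 genes of the plasminogen system were higher in PDGFRα+ DEX-a and 1, Plgrkt, was lower (-1.06). The higher ones were the urokinase gene Plau (2.45), its receptor Plaur (1.97), Anxa2 (1.06), whose product binds plasminogen at the cell surface, and the inhibitors Serpinb2 (1.15) and Serpine2 (1.02). The list thus held activating and inhibiting genes that were higher. Plau stood at 7.87 FPKM in PBS, 56.4 in DEX-a and 8.19 in DEX-b. Plat, the tissue activator, was under 2-fold apart (0.45), at 32.4, 53.1 and 37 FPKM. Among the shed substrates of ADAMs, 6 of 21 were higher and 1 lower in PDGFRα+ DEX-a. They included the growth factors Hbegf, at 2.12, 13.4 and 1.88 FPKM, and Ereg, at 2.74, 25.5 and 2.88 FPKM in PBS, DEX-a and DEX-b. Of 9 ADAMTS substrates 6 were lower and 0 higher, with a median of -1.57. The lower ones were Col1a1, Col1a2, Col3a1, Nid1, Nid2 and Fbn2, so 3 of them are the collagens of the N-proteinases. Vcan, the versican gene, was on the other side (0.27), at 59 FPKM in PBS, 84.5 in DEX-a and 50.7 in DEX-b, and so was Ltbp1 (0.21).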

How the data were processed

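RNA of 4 samples was taken with Trizol and made into Illumina TruSeq libraries, per the labels. The submitters' processing notes name Cufflinks, Cuffdiff and mm10. For the aligner, the annotation and the strand setting, the sources used here give nothing. The authors deposited 3 tables with FPKM of 2 libraries each, a log2 ratio, a p-value and a q-value for each gene, per the file headers. This deposited log2 ratio differed from that of the FPKM by at most 3.92e-05, apart from placeholders in 55, 195 and 194 genes where a library is listed at 0. No gene's higher value was below 0.386 FPKM, so lower genes are not listed. Since FPKM is relative to a library's total, highly expressed transcripts lower the values of the rest.

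Columns were mapped to samples by name, and 0 were left over. Differences of log2(FPKM + 1) were centred on the median over genes that reached 1 FPKM in both libraries. No test was run, since each table sets 1 library against 1 and columns of the same DEX label cannot be taken for replicates. Values in every library that listed the gene, for some as a range over several libraries, are given for members at least 2-fold apart in any table. The same holds for those at 50 FPKM or more and for a fixed set of well-known members, and the others are given by range. A withheld item is not reported here. The members, lists and rules were chosen with earlier results of these data known. Alternatives were a pseudocount of 0.1 or 5 FPKM, a minimum of 10 FPKM or none, no centring, upper quartile scaling and the DEX column of the same label in another table. The calculation was tested on simulated data. Gene positions came from GENCODE M21 (GRCm38). Python 3.11.15, numpy 2.4.6, pandas 2.3.3 and matplotlib 3.10.9 were used.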

Additional observations from a re-analysis of the deposited data

How the results depend on the processing

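No paired analysis was possible because each group has 1 library per table. With 1 library there is no replicate error, and depth is unknown. No calls were made in the CD137+ table under the pseudocounts, minimums and scalings tried, but its DEX-b column gave 4 higher and 7 lower members in place of 0 and 0. In the PDGFRα+ table the 9 higher and 13 lower members became 0 and 0 with the DEX-b column and 5 and 8 with a pseudocount of 5 FPKM, 13 and 14 with one of 0.1 FPKM, and 6 and 7 with a minimum of 10 FPKM. Between the cell types, 13 higher and 4 lower became 7 and 15 with the DEX-a columns and 8 and 1 with a minimum of 10 FPKM, 9 and 2 with a pseudocount of 5 FPKM, and 14 and 5 with one of 0.1 FPKM. Over all genes, the DEX-b columns gave 4.76% higher and 7.28% lower in CD137+ cells and 0.0562% and 0.112% in PDGFRα+ cells. The DEX-a columns gave 6.66% and 7.41% between the cell types. Shares over all genes under the other settings are not given here, so those counts cannot be read as particular to the members. The cause of the changed counts was not tested, beyond that a minimum leaves fewer genes and a larger pseudocount shrinks low ones.

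Among members counted as apart, with DEX-b in place of DEX-a the difference from PBS in PDGFRα+ cells turned its sign for Adam11 (0.015), Adam12 (-0.32), Adam23 (0.060), Adam33 (0.17), Adamts2 (0.12), Adamts15 (0.21), Adamtsl2 (0.28), Adamtsl4 (0.17), Mmp3 (-0.17), Mmp9 (-0.26), Mmp10 (-0.11), Mmp13 (-0.0027) and Mmp15 (-0.14). Among those counted between the cell types, with DEX-a in place of DEX-b the difference between cell types turned its sign for Adam11 (-0.30), Adamts2 (-1.89), Adamts5 (-1.05), Adamts9 (-0.044), Adamts14 (-1.23), Adamts15 (-2.73), Adamtsl2 (-1.03), Adamtsl4 (-1.62), Mmp13 (3.04) and Mmp23 (-1.91). Members closer than 2-fold, of which some turned too (Adam9, from 0.43 to -0.23), are not listed. These exchanges set values across tables.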
